A study of Danio rerio with 35 samples.

Results

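The cytosolic ribosomal protein genes of the zebrafish heart are described here as messenger RNA levels. They were chosen by symbol alone: every gene whose symbol starts with rpl or rps followed by a number, or with rplp, was taken, and the rps6k genes, which encode kinases, were left out. The rule found 80 genes among the 14781 in the count table, 47 named for the large subunit and 33 for the small subunit. They cover 73 of the 80 proteins of a eukaryotic ribosome, and 4 more are encoded by genes with other names, treated separately below. Rpl29, rpl37a and rpl41 were not analysed here. The RNA came from whole hearts of adult zebrafish that overexpressed klf1 (4 libraries) and of adult wild-type (WT) zebrafish (4 libraries), selected for poly(A) tails. How and where klf1 was driven is not in the labels, nor whether each library came from other animals, so p-values set the genotypes against a spread between libraries that may be technical. The other 27 of the 35 samples of the series profile chromatin and DNA methylation and were not analysed here.

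Ribosomal proteins and ribosomal RNA form the small subunit, which reads the messenger RNA, and the large subunit, which joins amino acids. The proteins are needed in near-equal numbers, and their messenger RNAs in vertebrates begin with a pyrimidine tract (the TOP motif) through which growth signals raise or hold back their translation together. Some ribosomal proteins have a second gene, or paralog, whose product can take the same place in the ribosome. Klf1 is a zinc-finger transcription factor known from red blood cell development, and shortage of single ribosomal proteins in humans causes Diamond-Blackfan anaemia, a failure of red cell production.

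The libraries held 9829896 to 13083853 counts. The overexpressed gene itself read 595, 655, 733 and 602 CPM (counts relative to library size, after TMM scaling, which sets aside the most changed and most abundant genes) in klf1 hearts, against 174, 268, 296 and 128 CPM in WT hearts (log2 fold change 1.58 ± 0.24 SE, klf1 minus WT). The tissue label fitted the markers: 14 cardiomyocyte genes summed to between 29348 and 46835 CPM in klf1 hearts and between 223894 and 266096 CPM in WT hearts, and 12 of 13 tested were lower in klf1. Macrophage and granulocyte markers were higher for 18 of 21 tested, their sums being 1740.3 to 2272 CPM in klf1 and 376 to 871 CPM in WT. Of 14 epicardial and fibroblast genes 9 were higher (2775 to 5884 CPM in klf1, 1427 to 1953 CPM in WT). The endothelial sums were 1320.2 to 1713 CPM in klf1 and 1474 to 2110.3 CPM in WT, with 1 gene higher and 6 lower of 15. The erythroid sums were 1344 to 1932 CPM in klf1 and 1935 to 2681 CPM in WT, with 6 of 10 tested genes lower. The lymphoid sums were 41.7 to 62.1 CPM in klf1 and 5.87 to 8.33 CPM in WT, with 5 of 5 tested genes higher. Beside these counts, 32.2% of all genes tested were higher in klf1 and 29.4% lower. In either direction 46.7% of endothelial and 60% of erythroid markers tested were called, against 61.6% of all genes. No marker was at 0 in all libraries. Klf1 library 1 and WT library 3 stood apart from their genotype in the ribosomal protein genes, and results that rest on them are given with and without them. The part of the cell mixture in the values below was not tested, and in whole hearts fewer cells of a type and less RNA per cell cannot be told apart.

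Ribosomal protein messages took a larger share of all counts in klf1 hearts than in WT hearts. Together the 80 genes took 13.3, 8.84, 9.76 and 10.02% of counts in klf1 libraries 1 to 4, against 5.03, 5.05, 8.21 and 5.62% in WT libraries 1 to 4. The ranges did not overlap, although WT library 3 came close to the lowest klf1 library. The means were 10.5 ± 1.92% in klf1 and 5.98 ± 1.51% in WT (SD, n = 4), a ratio of 1.75. Counting error was far smaller than this spread: the exact 95% binomial interval of the WT library 1 share was 5.02 to 5.04%. Without klf1 library 1 and WT library 3, which stood apart, the means were 9.54% and 5.23% and the ratio 1.82. Large and small subunit genes took 6.46 ± 1.13% and 4.01 ± 0.795% of counts in klf1 hearts, against 3.66 ± 0.867% and 2.32 ± 0.646% in WT hearts. The large-to-small ratio of counts was 1.61 ± 0.0354 in klf1 and 1.59 ± 0.0568 in WT.

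A share of all counts also moves when a few very abundant messages leave or enter the library. The 50 most counted genes that encode no ribosomal protein took 19.5 ± 1.34% of counts in klf1 hearts and 40.4 ± 0.902% in WT hearts (SD, n = 4). Outside those 50 genes the ribosomal protein share was 16.4, 11.2, 11.9 and 12.5% in klf1 libraries and 8.55, 8.55, 13.7 and 9.24% in WT libraries, a ratio of the means of 1.298. Here the groups overlapped, since WT library 3 lay above 3 of the klf1 libraries. Without klf1 library 1 and WT library 3 the ranges did not overlap, with means of 11.9% in klf1 and 8.78% in WT, a ratio of 1.35. After TMM scaling the summed level was 108168, 67946.5, 74161 and 78033 CPM in klf1 libraries, against 66445, 64336, 109584 and 67672 CPM in WT libraries. The means, 82077 ± 17883 CPM in klf1 and 77009 ± 21760 CPM in WT, differed by 1.07-fold, less than the spread within either genotype. Without klf1 library 1 and WT library 3 the sums were 67946.5 to 78033 CPM in klf1 and 64336 to 67672 CPM in WT, without overlap. Those libraries were left out because they stood apart in these same genes, so a smaller spread follows in part from that choice.

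**Figure D1:**
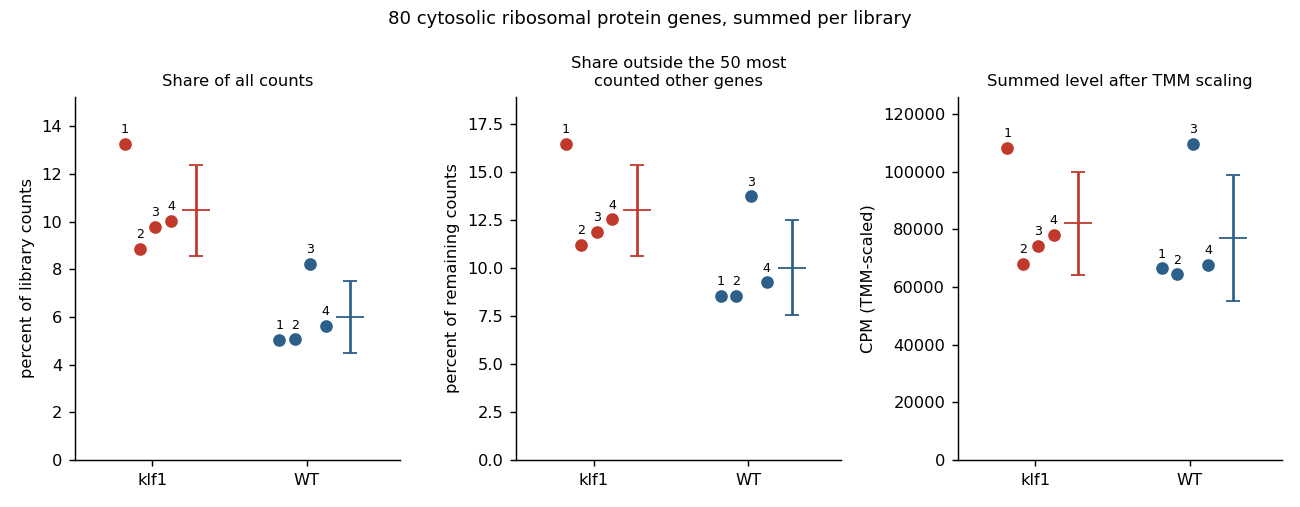
Summed ribosomal protein counts per library (points, numbered by library; klf1 red, WT blue; bar and whiskers, mean ± SD, n = 4) as percent of all counts, as percent of counts outside the 50 most counted other genes, and as TMM-scaled CPM. The genotypes are apart in the first panel (10.5% against 5.98%), overlap in the second, and have means of 82077 and 77009 CPM in the third; klf1 library 1 and WT library 3 are the highest of their genotype in every panel.

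Gene by gene, most ribosomal protein messages had small fold changes once libraries were scaled by TMM, and few passed the test. All 80 had enough counts to be tested, and 8 passed 0.05 after Benjamini-Hochberg adjustment in the quasi-likelihood F-test of edgeR (10%), against 61.6% of the 10493 genes tested. Their standard errors were wider (median 0.22, against 0.17 over all genes), and the difference between these shares was not tested. Of the 8, 6 were higher (32.2% of all genes tested were) and 2 lower (29.4%). The median log2 fold change, klf1 minus WT, was 0.10 over the 80 and 0.03 over all genes. The middle 50% of the ribosomal protein genes spanned 0.25 log2 units, against 1.23 over all genes, and 70 of the 80 (87.5%) lay within 0.5 of 0, against 43.1% of all genes. For 70 of the 80 the 95% interval of the fold change also lay wholly inside a 2-fold difference in either direction, which held for 48.4% of all genes. The genotypes did not overlap for 5 of the 80 (rpl22l1, rpl27a, rpl37, rpl7l1 and rps8b), against 57% of all genes. With library totals in place of TMM the picture was another one: 74 of the 80 were called higher (65.1% of all genes were), with a median of 0.82, while the median of all genes was 0.75.

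**Figure D2:**
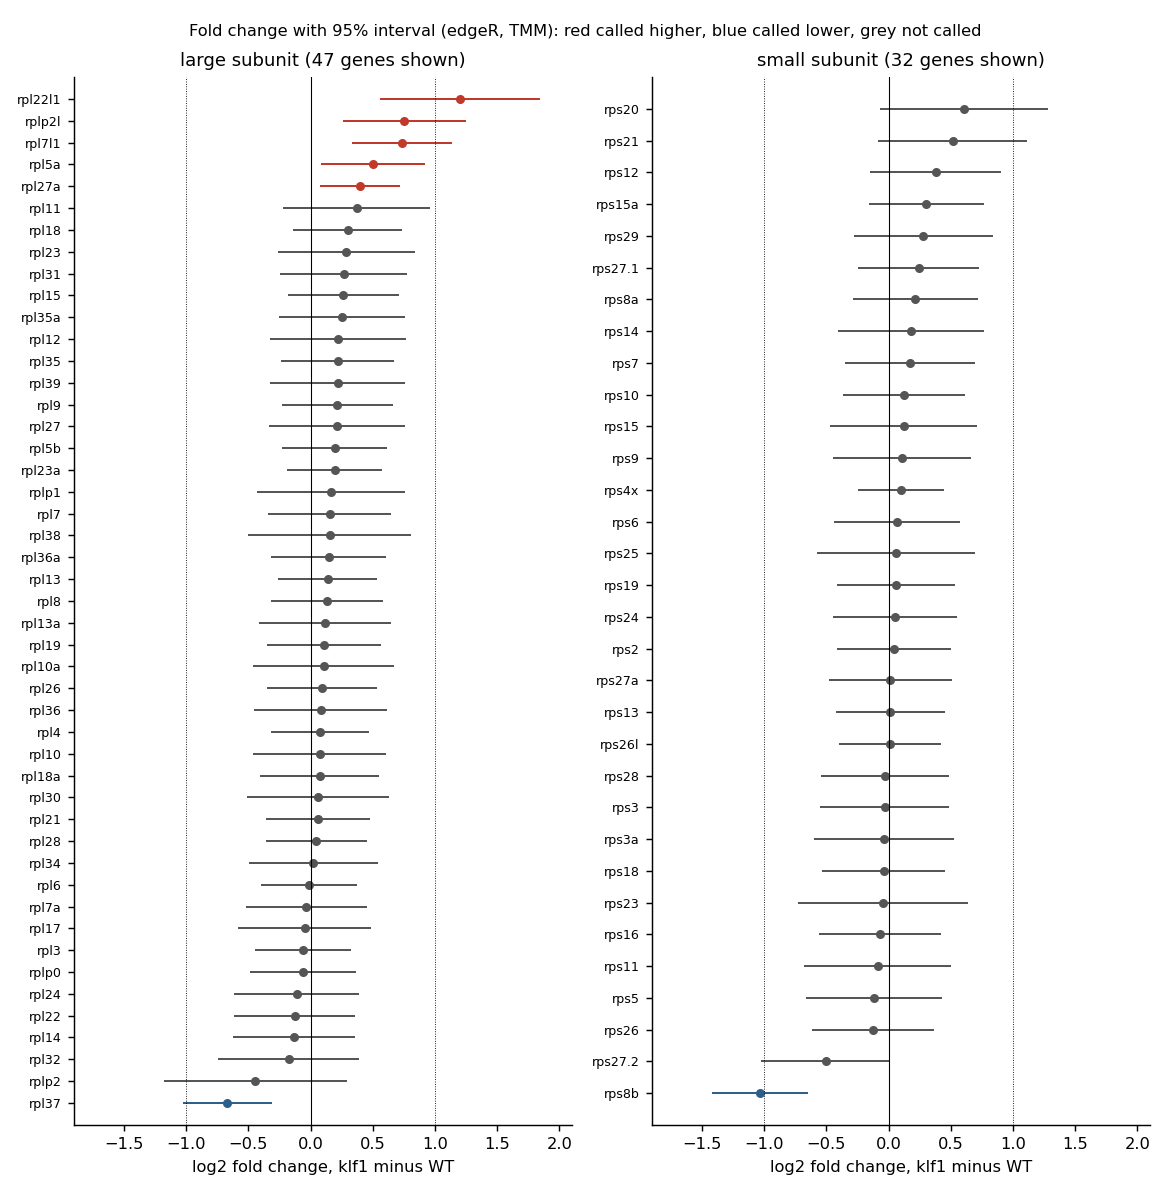
Log2 fold change of each ribosomal protein gene, klf1 minus WT, with its 95% interval (edgeR, TMM), for 47 large subunit and 32 small subunit genes; dotted lines mark a 2-fold difference. Red genes (5) were called higher in klf1 and blue genes (2) lower, and 70 of the 79 intervals shown stay inside the dotted lines.

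The few calls came with a large spread between libraries, and that spread was shared by the whole set. The median SD of log2 CPM within a genotype was 0.35 for ribosomal protein genes and 0.25 for all genes. In klf1 hearts, library 1 was the highest of the 4 for 79 of the 80 ribosomal protein genes, which held for 33.5% of all genes, and it stood 1.502-fold above the mean of the others in the median (1.00-fold over all genes). The exception was rpl37. In WT hearts, library 3 was the highest for 80 of 80, against 37.9% of all genes, and stood 1.70-fold above the others (1.03-fold over all genes). Other translation genes shared this in part. Klf1 library 1 was the highest for 79.4% of mitochondrial ribosomal protein genes (1.24-fold above the others). It was also the highest for 66.7% of ribosome assembly genes and 51.9% of the list of translation factors and other genes described below. For WT library 3 the shares were 77.9% (1.23-fold), 50% and 63.0%. Among the 80, the same genes deviated most in both libraries: rplp2 stood 0.99 above the other klf1 libraries and 1.27 above the other WT libraries on the log2 scale, rps23 0.94 and 1.13, and rps20 0.89 and 1.16. At the other end were rps4x (0.28 and 0.27) and rpl27a (0.24 and 0.25). Across the 80 genes, which are not independent and share these libraries, the deviations in klf1 library 1 and WT library 3 had a Pearson r of 0.83 and a Spearman rho of 0.85. The same pair of libraries also had the lowest epicardial and fibroblast sums of their genotype (2775 CPM in klf1 library 1, 1427 CPM in WT library 3) and the lowest endothelial sums (1320.2 CPM in klf1 library 1, 1474 CPM in WT library 3). No other marker list was at the same end of its genotype in both libraries. Macrophage and granulocyte sums were lowest in klf1 library 1 (1740.3 CPM) but highest in WT library 3 (871 CPM). The erythroid and lymphoid sums were lowest in klf1 library 1 (1344.5 and 41.7 CPM), while those of WT library 3 lay between those of the other WT libraries. The cardiomyocyte sums lay between those of the other libraries of the genotype in both. The part of any of these cell types in the deviation was not tested.

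Without klf1 library 1 and WT library 3 more of the ribosomal protein genes passed the test. These libraries were chosen because they stood apart in these same genes, so a smaller spread and more calls follow in part from that choice and are given as a description. The median SD within a genotype was then 0.08 on the log2 scale, against 0.18 over all genes, and 26 of the 80 were called (32.5%; 22 higher and 4 lower), against 64.3% of all genes. The changes stayed small: the median log2 fold change was 0.14, against 0.02 over all genes, and 76 of the 80 intervals (95%) lay inside a 2-fold difference, against 49.6% of all genes. All 8 genes called with all libraries were called here too. Leaving out WT library 3 alone gave 21 higher and 2 lower with a median of 0.33, where 62.8% of all genes were called. Leaving out klf1 library 1 alone gave 3 higher and 3 lower with a median of -0.08, where 60.5% of all genes were called. The sign of the median depended on which of the pair was kept.

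**Figure D3:**
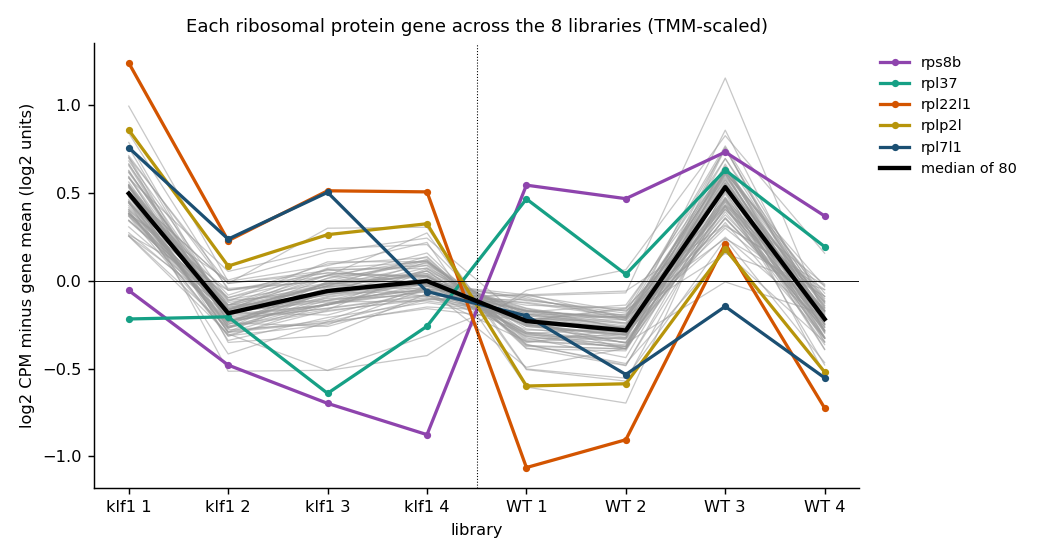
Log2 CPM of each of the 80 genes minus its own mean, in klf1 libraries 1 to 4 and WT libraries 1 to 4 (grey lines, 1 per gene; black, the median; colours, 5 genes that kept their call whichever library was left out). Most lines are highest in klf1 library 1 and WT library 3. In the klf1 libraries rps8b and rpl37 lie below the black line and rpl22l1 and rplp2l above it, as does rpl7l1 in klf1 libraries 1 to 3.

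Among the 47 genes named for the large subunit 5 were higher (32.2% of all genes were) and 1 was lower (29.4%). The median log2 fold change of the 47 was 0.13. The 5 include rpl7l1, known in mammals as an assembly factor rather than a protein of the mature ribosome. The genes with the most counts, which are not corrected for transcript length, were all outside the calls. rpl3, whose product lines the peptidyl transferase centre, read 2920, 2030, 2290 and 2415 CPM in klf1 hearts, against 2313, 2348, 3048 and 2362 CPM in WT hearts (log2 fold change -0.06 ± 0.17 SE). rpl4, which reaches into the exit tunnel, differed by 0.07 ± 0.18, rpl6 by -0.01 ± 0.17 and rpl7a by -0.03 ± 0.22. rplp0, the base of the stalk that recruits the GTPases of translation, read 2249 ± 386 CPM in klf1 and 2352 ± 485 CPM in WT (SD, n = 4; -0.06 ± 0.19). rpl14 (-0.14 ± 0.22) and rpl32 (-0.18 ± 0.26) were among the lowest fold changes and were not called.

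Of the large subunit genes that did pass the test, rpl27a rose to 587, 453, 506 and 534 CPM in klf1 hearts, against 384, 353, 449 and 395 CPM in WT hearts. It was named after its values were seen. Each klf1 library lay above each WT library, the log2 fold change was 0.40 ± 0.14 (SE; edgeR adjusted p = 0.0313), and the call was lost in 5 of the 8 fits that left out a library (klf1 library 1 or 4, or WT library 1, 2 or 4), with an adjusted p of up to 0.104. rpl37, a zinc-binding protein of the large subunit, fell to 14.5, 14.6, 10.8 and 14.1 CPM in klf1 hearts, against 23.2, 17.3, 26.1 and 19.2 CPM in WT hearts (-0.67 ± 0.16; edgeR adjusted p = 0.00308). With library totals this difference was 0.05 and not called. rpl37 made up 0.0168 ± 0.00366% of ribosomal protein counts in klf1 and 0.0285 ± 0.00473% in WT. Whether reads of this gene were assigned elsewhere is not given in the sources used here, so its level is uncertain.

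Small subunit genes were as even, where 1 of 33 was higher (32.2% of all genes were) and 1 lower (29.4%) and the median was 0.06. rps2, which sits at the entry of the mRNA channel, took the most counts of the 80 genes and read 3827, 2488, 2820 and 3070 CPM in klf1 hearts, against 2590, 2585, 4052 and 2612 CPM in WT hearts (0.04 ± 0.21 SE). rps20 and rps21 had positive fold changes with a wide spread. rps20 read 1216, 609, 648 and 710 CPM in klf1 and 401, 377, 890 and 422 CPM in WT (0.61 ± 0.31; adjusted p = 0.106 by edgeR). rps21 read 897, 483, 511 and 605 CPM in klf1 and 353, 337, 696 and 360 CPM in WT (0.52 ± 0.27; adjusted p = 0.117 by edgeR). Without klf1 library 1 and WT library 3 both were called, at 0.70 ± 0.10 and 0.59 ± 0.11 (edgeR adjusted p = 0.000432 and 0.00171). In those libraries rps20 stood 0.89 and 1.16 above the others of the genotype on the log2 scale, and rps21 0.76 and 0.99. A smaller spread follows in part from leaving them out, so these calls are given as a description.

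Groups of members by role, drawn up after the values were seen and given without a test, had median log2 fold changes between 0.03 and 0.37. The 5S ribonucleoprotein genes rpl5a, rpl5b and rpl11, whose products bind 5S ribosomal RNA and can also restrain the p53 regulator Mdm2, had fold changes between 0.19 and 0.50 on the log2 scale, with rpl5a called. The 9 genes at the polypeptide exit tunnel and its rim had a median of 0.19 and ranged from -0.13 to 1.201, with rpl22l1 at the top and called. None of the 6 genes at the decoding site and mRNA entry was called by edgeR, DESeq2 or limma-voom, nor at an unadjusted p under 0.05, and they ranged from -0.05 to 0.12. By edgeR 61.6% of all genes tested were called but only 10% of the 80 members, so this does not set these genes apart from the other members. Of 21 zebrafish homologues of human Diamond-Blackfan anaemia genes, 2 were higher by edgeR (32.2% of all genes were), rpl5a among them, and the median was 0.22. Without klf1 library 1 and WT library 3, 11 of those 21 were higher and 1 lower. In that fit 3535 of all 10562 genes tested were higher and 3253 lower (64.3% called). Of the 80 members 22 were higher and 4 lower without those libraries. Those libraries were chosen on the ribosomal protein genes, so these calls are a description.

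Paralog pairs were compared by the log2 ratio of their counts within each library, in which library size and scaling cancel. Of 7 pairs, 5 had ratios that did not overlap between the genotypes, each with an exact two-sided permutation p of 0.0286 over 70 assignments, the smallest this design allows, and 0.04 after Benjamini-Hochberg adjustment over the 7 pairs. Single genes often did not overlap either, which held for 57% of all genes tested in TMM-scaled CPM. The share for ratios of other gene pairs is not given here, so whether 5 of 7 is unusual cannot be told. Reads of near-identical copies may have been split or dropped in counting, so the absolute ratios are uncertain.

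On the log2 scale the widest of the 7 shifts was that of rpl22l1 against rpl22. Both encode an RNA-binding protein on the surface of the large subunit, and in mice Rpl22 holds back the Rpl22l1 message and the pair have been tied to blood cell development. rpl22l1 read 315.5, 156, 190.4 and 190 CPM in klf1 hearts, against 63.9, 71.3, 154.5 and 80.8 CPM in WT hearts. Each klf1 library lay above each WT library, though WT library 3 came within a few CPM of the lowest klf1 library (log2 fold change 1.201 ± 0.29 SE, edgeR adjusted p = 0.00347). rpl22 read 777, 504, 497 and 552.5 CPM in klf1 hearts, against 547, 519, 913 and 567 CPM in WT hearts (-0.13 ± 0.22). rpl22l1 made up 28.9, 23.7, 27.7 and 25.6% of the pair's counts in klf1 hearts, against 10.5, 12.1, 14.5 and 12.5% in WT hearts. The log2 ratio differed by 1.35 between the genotypes, a 2.56-fold change of the ratio, while the pair summed to 796 ± 201 CPM in klf1 and 729 ± 227 CPM in WT (SD, n = 4).

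The stalk gene rplp2l rose, while its paralog rplp2 had a negative fold change that was not called. Their products are acidic P2 proteins that hang from rplp0 as pairs with rplp1. rplp2l read 635, 371, 420 and 438 CPM in klf1 hearts, against 231, 233, 397 and 244 CPM in WT hearts (0.75 ± 0.22; edgeR adjusted p = 0.011). rplp2 read 745.5, 357, 358 and 411 CPM in klf1 hearts, against 481, 486.5, 1136 and 442 CPM in WT hearts (-0.44 ± 0.33; edgeR adjusted p = 0.269). The share of rplp2l in the pair was 46.0, 51.0, 54.0 and 51.6% in klf1 and 32.5, 32.4, 25.9 and 35.6% in WT, and the log2 ratio differed by 1.16. As a part of all ribosomal protein counts rplp2l was steady within a genotype, at 0.565 ± 0.0168% in klf1 and 0.358 ± 0.00699% in WT (SD, n = 4).

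The ratios of 3 further pairs did not overlap either. rps8b fell to 26.1, 19.4, 16.7 and 14.8 CPM in klf1 hearts, against 39.6, 37.5, 45.1 and 35.1 CPM in WT hearts, with no overlap (-1.03 ± 0.17; edgeR adjusted p = 0.000259). With library totals it differed by -0.32 and was not called. Its paralog rps8a, which holds nearly all counts of the pair, read 1688 ± 376 CPM in klf1 and 1454 ± 442 CPM in WT (0.22 ± 0.23), and the log2 ratio of rps8a to rps8b differed by 1.29. rps27.1 and rps27.2 are copies for a zinc-finger protein of the small subunit. rps27.2 read 993, 675, 584 and 620 CPM in klf1 and 802, 870.1, 1477 and 928 CPM in WT (-0.51 ± 0.23; edgeR adjusted p = 0.0793), and rps27.1 read 677 ± 146 CPM in klf1 and 573 ± 171 CPM in WT (0.24 ± 0.22). The share of rps27.1 in the pair was 47.1, 44.6, 51.5 and 51.6% in klf1, against 37.6, 36.2, 36.0 and 34.3% in WT. rpl5a rose to 1512, 1047, 1146 and 1164 CPM in klf1, against 784, 728, 1131 and 793 CPM in WT (0.50 ± 0.19; edgeR adjusted p = 0.0342), and rpl5b read 1438 ± 213 CPM in klf1 and 1259 ± 295 CPM in WT (0.19 ± 0.19). Their log2 ratio differed by only 0.30, but it was tight: rpl5a made up 45.8 ± 0.949% of the pair in klf1 and 40.6 ± 0.542% in WT (SD, n = 4). The rpl5a call was lost in the same 5 fits as that of rpl27a, with an edgeR adjusted p of up to 0.107.

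The ratios of the remaining pairs overlapped between the genotypes. rpl7l1, known in mammals as a nucleolar factor of large subunit assembly rather than a protein of the mature ribosome, rose to 43.8, 30.5, 36.7 and 24.8 CPM in klf1 hearts, against 22.6, 17.9, 23.4 and 17.6 CPM in WT hearts, with no overlap (0.74 ± 0.18; edgeR adjusted p = 0.00376). Its ratio to rpl7 differed by 0.56 (exact permutation p = 0.0571, adjusted 0.0667), and rpl7 itself by 0.15 ± 0.22. rps26l and rps26 differed by 0.01 ± 0.18 and -0.13 ± 0.22, and their log2 ratio was 0.92 ± 0.11 in klf1 and 0.79 ± 0.10 in WT (SD, n = 4; exact permutation p = 0.143).

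**Figure D4:**
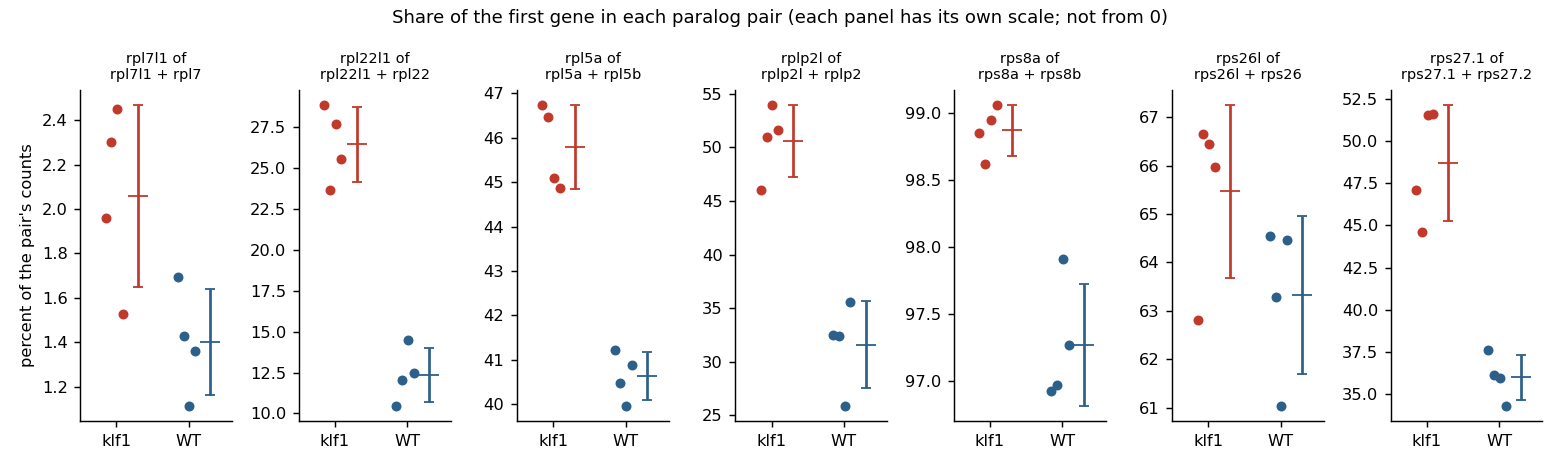
Percent of a pair's counts that came from the first-named gene, for 7 paralog pairs, per library (points; klf1 red, WT blue; bar and whiskers, mean ± SD, n = 4); each panel has its own axis, which does not start at 0. The genotypes are apart in 5 panels, among them rpl22l1 (26.5 ± 2.31% in klf1, 12.4 ± 1.65% in WT) and rplp2l (50.6 ± 3.35% in klf1, 31.6 ± 4.07% in WT), and overlap for rpl7l1 and rps26l.

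To ask which members departed from the set itself, libraries were also scaled on the summed ribosomal protein counts, an alternative chosen after the data were seen. Then 7 of the 80 were called by edgeR (44.2% of all genes were). Of these, rpl22l1 (log2 fold change 1.13 ± 0.22 SE), rplp2l (0.66 ± 0.19) and rpl7l1 (0.61 ± 0.23) were higher, and rps8b (-1.16 ± 0.22), rpl37 (-0.76 ± 0.23) and rps27.2 (-0.60 ± 0.19) lower. Without klf1 library 1 and WT library 3, rpl5a, rps20 and rps21 joined the higher and rplp2 the lower genes, 11 in all, against 61.9% of all genes. Those libraries were chosen on these same genes, so the added calls are a description. rpl27a was not called relative to the set (0.28 ± 0.21 with all libraries).

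Ribosome components with other names were not called either. None of the 5 genes, among them rpsa, gnb2l1, faua and faub, was called by edgeR, DESeq2 or limma-voom, nor at an unadjusted p under 0.05. Over all genes tested, 61.6% were called by edgeR, 61.9% by DESeq2 and 61.2% by limma-voom. The share of all genes at the unadjusted threshold is not given here. gnb2l1, the scaffold protein Rack1 of the small subunit, read 2089, 1482, 1531 and 1518 CPM in klf1 hearts, against 1395, 1388, 1889 and 1485 CPM in WT hearts (0.10 ± 0.18). rpsa read 2063 ± 303 CPM in klf1 and 1976 ± 360 CPM in WT (0.06 ± 0.18). The highest libraries were again klf1 library 1 and WT library 3, for 5 of 5 genes.

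The list called translation factors here, many of which also have TOP messages, also holds other genes, such as naca, btf3, npm1a and hnrnpa1a. Of its 27 tested genes 6 were higher (32.2% of all genes were) and 6 lower (29.4%), with a median of 0.02. The elongation factor eef1a1l1, with the most counts of the list, read 9478 ± 640 CPM in klf1 and 9356 ± 635 CPM in WT (SD, n = 4; 0.02 ± 0.16). tpt1, a classic TOP message, read 4721, 3245, 3443 and 3741 CPM in klf1, against 2790, 2497, 4105 and 2731 CPM in WT (0.32 ± 0.20). The poly(A)-binding proteins pabpc4 and pabpc1b fell by 3.97 ± 0.20 and 1.604 ± 0.17 on the log2 scale, pabpc4 to 275 ± 57.7 CPM in klf1 hearts, against 4307 ± 66.1 CPM in WT hearts. A further poly(A)-binding protein gene of the list, pabpc1a, was not called (0.02). The helicase gene eif4a2 fell by 1.18 ± 0.17.

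Genes that build ribosomes were called at a rate nearer to the background. Of 78 tested assembly factors, RNA polymerase I genes and Myc genes, 25 were higher and 14 lower by edgeR (50%, against 61.6% of all genes), with a median of 0.22. mycn, a transcription factor that drives ribosome production, rose to 46.9, 30.5, 46.8 and 45.7 CPM in klf1 hearts, against 8.98, 11.96, 6.51 and 7.23 CPM in WT hearts (2.29 ± 0.21), and nop16 by 1.42 ± 0.13. The Myc genes did not move together: mycb was lower (-1.57) and myca was not called (-0.02). ddx54 and ddx21, RNA helicases of the nucleolus, fell by 1.46 ± 0.16 and 0.66 ± 0.13. Nucleolin (ncl) read 458 ± 46.7 CPM in klf1 and 365 ± 35.2 CPM in WT (0.33 ± 0.14; edgeR adjusted p = 0.0629).

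The ribosome inside mitochondria gave another picture. Of 68 tested mitochondrial ribosomal protein genes, 66 were lower in klf1 hearts by edgeR (97.1%, against 29.4% of all genes lower), with a median of -1.302. In the same hearts 12 of 13 tested cardiomyocyte markers were lower, and their part in this was not tested. The mitochondrial genes not called were mrpl53 (-0.43) and mrps21 (0.10). All were taken by symbol (mrpl or mrps and a number). Whether each product, that of mrps36 included, is a protein of the mitochondrial ribosome was not checked. mrps35 fell to 24.2, 20.1, 20.3 and 17.8 CPM in klf1 hearts, against 82.6, 80.1, 112 and 78.8 CPM in WT hearts (-2.10 ± 0.15), mrpl28 changed by -1.81 ± 0.13, mrps2 by -1.75 ± 0.12 and mrps36, with the most counts of these genes, by -1.75 ± 0.19. With library totals their median was -0.58, while that of the cytosolic set was 0.82 and that of all genes 0.75.

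**Figure D5:**
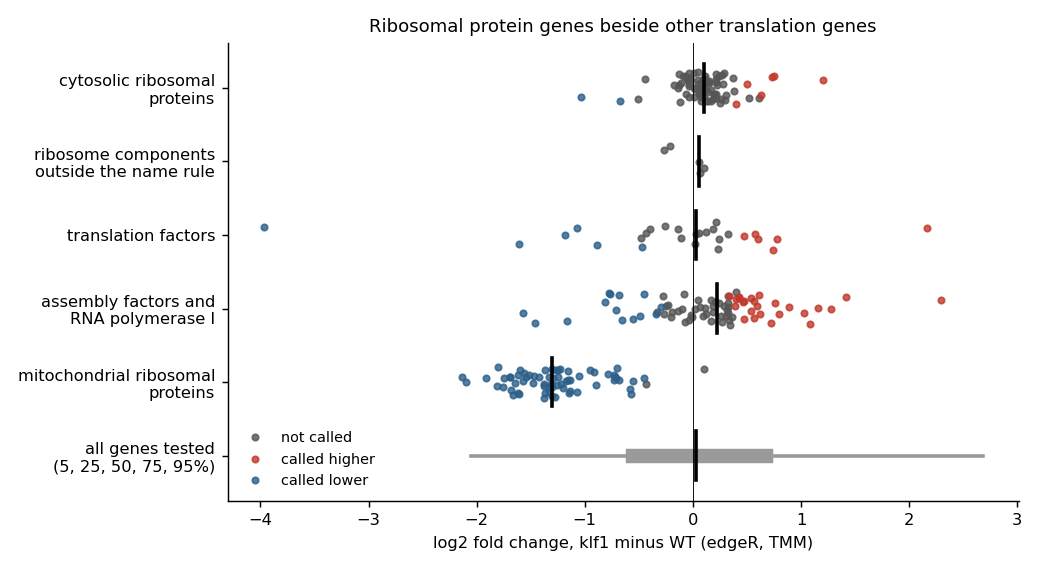
Log2 fold change, klf1 minus WT (edgeR, TMM), of each tested gene of the cytosolic ribosomal protein set, of 4 other groups of translation genes and, as quantiles, of all genes (points, genes; black bars, medians; red called higher, blue called lower, grey not called). The 80 cytosolic genes cluster around a median of 0.10, while the 68 mitochondrial ribosomal protein genes lie around -1.302.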

How the data were processed

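For each of the 8 RNA libraries the authors deposited a whole-number count per gene, not normalized. Kapa kits that mark strand served for library construction after miRNeasy purification, per the labels' protocols. Bowtie2 2.2.8, deepTools 3.1.2 and the build danRer10 stand in the submitters' processing notes without a role. Which aligner, counter, annotation and strand setting made the RNA counts is not given in the sources used here. Files of single libraries carry 11 symbols turned into dates, of which 0 are members, so symbols were taken from the joint matrix, where each of 8 libraries matched 1 column of its genotype. Groups follow the genotype label. No library was a repeat of another (chi-square over its degrees of freedom was 7.84 or more in every same-genotype pair).

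Genes passing edgeR's filterByExpr (10493) were scaled with TMM, and the quasi-likelihood F-test of edgeR 4.0.16 was applied (R 4.3.3; robust, intercept and genotype, two-sided) with Benjamini-Hochberg adjustment over all of them. Standard errors are the fold change over the square root of F, which is approximate, and 95% intervals use the test's degrees of freedom. Paralog ratios are log2((count + 0.5)/(count + 0.5)). Alternatives changed the scaling, the filter (at least 50 counts in 4 libraries, or none), the test (DESeq2 1.42.0, limma-voom of limma 3.58.1) and the libraries. Members and lists were chosen with earlier results of these data known. Named are the 6 most counted members, the 6 largest rises and falls, all paralogs, members called against the larger direction, and per other list the 3 smallest p-values and 2 most counted; others are said to be named after their values were seen. Some genes are counted but not reported singly here. No genome or sequence table was used.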

Additional observations from a re-analysis of the deposited data

Results flagged for a closer look

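Of 74 sets of 4 libraries examined, 22 had a library far from the others by Dixon's test at its 95% critical value of 0.829. Each of the 22 was a named ribosomal protein gene in 1 genotype. What the rest of the 74 measured is not given here. Chance gives about 1 in 20, and the rate over all genes tested is not given here. The genes share libraries and are not independent.

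In klf1 hearts library 1 was far above the others for 4 genes. It read 745.5 CPM for rplp2 (357 to 411 in the others), 1216 CPM for rps20 (609 to 710), 309 CPM for rps26 (187 to 205) and 523 CPM for rps26l (374 to 397). Klf1 library 3 was far below the others for rpl37, with 10.8 CPM against 14.1 to 14.6 CPM.

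In WT hearts all 17 cases were library 3, above the others. Among large subunit genes it read 1282 CPM for rpl14, 913 CPM for rpl22, 3048 CPM for rpl3, 1817 CPM for rpl32, 1131 CPM for rpl5a, 1699 CPM for rpl5b, 2077 CPM for rpl7, 3299.9 CPM for rpl7a, 1136 CPM for rplp2 and 397 CPM for rplp2l. Among small subunit genes it read 4052 CPM for rps2, 889.7 CPM for rps20, 696 CPM for rps21, 354 CPM for rps26, 554 CPM for rps26l, 829 CPM for rps27.1 and 2116 CPM for rps8a. The gap was widest for rps2, where the other WT libraries lay between 2585 and 2612 CPM. The cause was not tested.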

How the results depend on the processing

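With library totals in place of TMM, 74 members were called higher and 0 lower, and the medians were 0.82 for the members, 0.78 for components with other names, 0.74 for translation factors, 0.94 for assembly genes and -0.58 for mitochondrial ribosomal proteins, while the median of all genes was 0.75. Fold changes that turned positive were 0.58 for rpl14, 0.59 for rpl22, 0.65 for rpl3, 0.54 for rpl32, 0.048 for rpl37, 0.70 for rpl6, 0.68 for rpl7a, 0.65 for rplp0, 0.28 for rplp2, 0.59 for rps26 and 0.21 for rps27.2. DESeq2 size factors, upper-quartile factors, TMM without the members or without the 50 most counted genes, both filters and limma-voom kept 6 higher and 2 lower, and DESeq2's test gave 6 and 3. Signs near 0 turned with upper-quartile factors (rpl3 0.018, rpl6 0.064, rpl7a 0.044, rplp0 0.013), DESeq2 size factors and test (rps26l -0.011 in both) and the filters (rpl6 0.0077 with none, 0.0029 with the strict one).

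Over the fits without 1 library, 3 to 21 members were higher and 2 to 3 lower, with a median from -0.08 to 0.33. In those fits 6016 to 6695 of all genes tested were called in either direction. Signs turned for rpl14 (-0.31 to 0.078), rpl22 (-0.31 to 0.090), rpl3 (-0.18 to 0.036), rpl32 (-0.39 to 0.11), rpl4 (-0.070 to 0.16), rpl6 (-0.13 to 0.090), rpl7 (-0.034 to 0.35), rpl7a (-0.20 to 0.17), rplp0 (-0.20 to 0.081), rps2 (-0.10 to 0.23), rps26 (-0.33 to 0.10) and rps26l (-0.13 to 0.17). The paralog ratios that missed the threshold passed it without 1 library, rps26l to rps26 (0.088 to 0.19) without klf1 library 1 and rpl7l1 to rpl7 (0.45 to 0.70) without klf1 library 4. In each case the library left out was the only klf1 library within the WT range. Passing therefore follows from leaving it out and is given as a description.

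Without klf1 library 1 and WT library 3, chosen after the data were seen, 22 members were higher and 4 lower, and rpl7a was at 0.012. The ratio differences were then 1.39 for rpl22l1, 0.27 for rpl5a, 1.12 for rplp2l, 1.43 for rps8a and 0.79 for rps27.1 to their paralogs, where 3 libraries against 3 cannot give an exact p under 0.1. Scaled on the summed member counts, rpl4 was at -0.047, rps2 at -0.051 and rps26l at -0.085; with both libraries out 4 members were lower and the values were -0.11, -0.047 and -0.091. No paired analysis was possible because the RNA libraries of the genotypes carry different preparation numbers in the labels. For the summed share, the 4 libraries per genotype, not counting depth, limit the precision. For members with few counts, such as rpl37 with 137 to 236 per library, counting error is larger and was not separated from the spread between libraries.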
